A study of Mus musculus with 3 samples.

Results

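Natural killer (NK) cells of B16-F10 tumors were examined by single-cell RNA-Seq. NK cells were selected on the UMI counts of single barcodes. A barcode was counted as one when it had UMIs (unique molecular identifiers, each standing for 1 captured transcript) of at least 200 genes, at most 20% mitochondrial UMIs and less than 0.5% of its UMIs from the melanocyte genes Dct and Pmel. It also needed at least 1 UMI of Ncr1, or UMIs of at least 2 of Klre1, Klra8, Klra4, Klrb1c, Klri2 and Eomes, with 0 UMIs of the T and B cell genes Cd3e, Cd3d, Trac, Cd4, Cd8a, Cd8b1 and Cd79a. This left 726 NK cells among 24668 barcodes that passed the gene and mitochondrial limits, out of 27374 barcodes in all.

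The 3 libraries were each made from pooled tumors of 3 female C57BL/6J mice, 6 to 8 weeks old, carrying B16-F10, a mouse melanoma line. Tumors were dissociated enzymatically, red blood cells were lysed, and no sort for immune cells was stated. In the libraries labelled shMib2 1 and shMib2 2 the melanoma cells carried different short hairpin RNAs against Mib2, an E3 ubiquitin ligase gene, and in the library labelled shCtrl 1 they carried a control hairpin. The question was how lowering of MIB2 in the tumor affects antitumor immunity. The NK cells belong to the host and carry no hairpin, so they stand for the response of unmodified cells to the tumor. As each library pools its mice, the spread between the libraries labelled shMib2 mixes hairpin, mice and preparation. P-values between the labels measure only that spread. Those of NK cells against T cells measure how the difference between these cells varies over the 3 libraries.

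NK cells are innate lymphocytes that kill transformed or infected cells without a rearranged antigen receptor. They weigh signals of activating receptors, many of which pass through the adaptors Tyrobp (DAP12) and Fcer1g, against those of inhibitory receptors for MHC class I, which in the mouse include the Ly49 (Klra) family and the Cd94 (Klrd1) and Nkg2 (Klrc) pair. On activation they release perforin and granzymes and secrete interferon gamma and chemokines such as Xcl1 and Ccl5. In the mouse, maturation runs from Cd27-bearing to Itgam (CD11b)-bearing cells, and the related ILC1 (group 1 innate lymphoid cells that reside in tissue) carry Itga1 and Cxcr6.

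The libraries held 8388 to 9558 barcodes and 190904274 to 243926188 UMIs. Melanoma barcodes, those with at least 0.5% of UMIs from Dct and Pmel, numbered 6658, 4180 and 8175 of those kept in the libraries labelled shMib2 1, shMib2 2 and shCtrl 1. In them Mib2 stood at 3.13 and 2.66 CPM (UMIs scaled to a fixed total per library) in the libraries labelled shMib2 and at 2.49 CPM in that labelled shCtrl, with 95% Poisson intervals of 2.87 to 3.39, 2.43 to 2.91 and 2.29 to 2.70 CPM. Thus the targeted transcript was not lower under the hairpins against it, and the libraries are called by their labels throughout. In NK cells, where no hairpin acts, Mib2 had 3 and 8 UMIs in the libraries labelled shMib2 and 3 in that labelled shCtrl. A barcode sequence was shared by 2 or more libraries in 75 cases, 2 of which were NK cells in 1 of them, and none was an NK cell in more than 1.

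NK cells had fewer UMIs in the median than T cells of each library. The median NK cell had 1395.5, 2265 and 1485 UMIs in the libraries labelled shMib2 1, shMib2 2 and shCtrl 1, against 1665, 2771.5 and 1564 UMIs in T cells of the same libraries. Barcodes that met the NK part of the rule but were excluded by T or B cell genes had medians of 2230, 3347 and 1760 UMIs. NK cells needed 0 UMIs of 7 genes and T cells UMIs of at least 2 genes, and the effect of these gates on depth was not tested. Summed over cells, NK cells gave 555172, 1249265 and 74750 UMIs, so values from the library labelled shCtrl are the least precise. A few very deep barcodes, with more than 5 times the median UMIs of NK cells in their library, numbered 9, 9 and 1. They held 26.0, 15.7 and 21.1% of all NK UMIs, and they are set apart below wherever a result rests on them.

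Ncr1, which encodes the activating receptor NKp46, could meet the NK part of the gate on its own. It had a UMI in 146, 267 and 18 NK cells of the libraries labelled shMib2 1, shMib2 2 and shCtrl 1. The median number of the 7 NK genes of the rule with a UMI in these cells was 3, 4 and 3, so many met both parts. The other 118, 160 and 17 NK cells, with no Ncr1, entered through the 6 further genes. These encode receptors of the NK gene complex (Klre1, Klri2, Klra4, Klra8 and Klrb1c, the NK1.1 antigen of C57BL/6 mice) and Eomes, a T-box factor of NK cells. The members closest to the threshold, with exactly 2 of these genes and no Ncr1, numbered 56, 48 and 10, and those just outside it, with exactly 1, numbered 43, 47 and 13. Gzma, which the rule does not use, had a UMI in 92.9, 91.7 and 100% of those just inside and in 74.4, 51.1 and 38.5% of those just outside. Cells admitted by 1 UMI of Ncr1 with none of the 6 genes numbered 10, 10 and 1. Gzma had a UMI in 40, 30 and 0% of them, less than in those just outside, so the threshold was not clean on the Ncr1 side. The exclusion genes removed another 36, 118 and 4 barcodes that met the NK part of the rule.

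The upstream sequences of Ncr1, the gene of the rule that could suffice alone, and of Gzma, the gene outside the rule with the smallest p against T cells, are given here. They are the 250 bases before the start of each gene, from RefSeq on build GRCm38.p6 (mm10): chr7:4337465-4337714 on the plus strand for Ncr1 and chr13:113100982-113101231 on the minus strand for Gzma. Capitals mark ACCACA or, on the other strand, TGTGGT, the core that Runx factors bind. Runx3 is a transcription factor of NK and CD8 T cells.
Ncr1: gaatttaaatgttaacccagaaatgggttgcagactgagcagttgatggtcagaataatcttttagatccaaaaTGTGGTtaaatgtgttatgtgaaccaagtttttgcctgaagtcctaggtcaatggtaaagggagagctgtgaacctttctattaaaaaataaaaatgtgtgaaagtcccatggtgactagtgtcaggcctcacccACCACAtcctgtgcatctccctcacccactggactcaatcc
Gzma: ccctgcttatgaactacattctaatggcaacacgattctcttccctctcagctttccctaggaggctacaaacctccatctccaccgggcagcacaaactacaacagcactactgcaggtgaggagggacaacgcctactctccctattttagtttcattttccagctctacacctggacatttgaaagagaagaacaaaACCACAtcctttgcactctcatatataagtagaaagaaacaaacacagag
The window of Ncr1 held 2 matches and that of Gzma 1. Of the 7 genes of the NK part of the rule, 6 had a window in the table, and Ncr1, Klre1 and Klrb1c held a match. Among all 27025 windows 14.2% held one, and among the 6049 windows of genes tested between NK and T cells 10.7% did, compared with 12.7% of the 394 windows of genes higher in NK cells than in T cells and 10.6% of the 357 windows of genes lower in them. The match is a description of the letters and not a bound site.

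The Ly49 genes of the rule are shown because their likeness bears on how well their UMIs can be told apart. Klra4 lies at chr6:130043731-130067271 and Klra8 at chr6:130115226-130129898, both on the minus strand, and the windows upstream of them are chr6:130067272-130067521 and chr6:130129899-130130148. Capitals mark the longest run, of 27 bases, that both windows share.
Klra4: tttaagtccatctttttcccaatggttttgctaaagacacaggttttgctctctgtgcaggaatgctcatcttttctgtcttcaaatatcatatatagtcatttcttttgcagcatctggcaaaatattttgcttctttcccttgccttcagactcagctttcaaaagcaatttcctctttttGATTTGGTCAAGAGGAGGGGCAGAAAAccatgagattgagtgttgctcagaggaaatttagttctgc
Klra8: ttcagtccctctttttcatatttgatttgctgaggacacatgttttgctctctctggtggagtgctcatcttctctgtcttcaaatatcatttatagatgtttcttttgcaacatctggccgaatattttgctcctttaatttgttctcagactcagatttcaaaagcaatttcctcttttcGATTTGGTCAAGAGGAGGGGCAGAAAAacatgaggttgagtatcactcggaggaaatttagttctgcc
These windows were 84.5% identical over 251 aligned positions, compared with 41.4% over 280 positions for those of Ncr1 and Gzma, and neither held the Runx core. The longest transcripts of Klra4 and Klra8 were 70.1% identical, those of Klra3 and Klra8 81.0%, and those of Klra3 and Klra9 93.1%. Reads of such paralogs can be split or lost in counting, so single values of Ly49 genes are uncertain.

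NK cells took a larger share of barcodes in the libraries labelled shMib2 than in that labelled shCtrl. They were 264 of 8568 barcodes (3.08%, 95% Wilson interval 2.74 to 3.47) in the library labelled shMib2 1, 427 of 7283 (5.86%, 5.35 to 6.43) in shMib2 2 and 35 of 8817 (0.397%, 0.286 to 0.552) in shCtrl 1. The intervals cover counting error only. The ratio to the library labelled shCtrl was 7.76 for shMib2 1 and 14.8 for shMib2 2, 11.3 ± 4.96 on average (SD, n = 2). This difference was not tested, since an exact permutation test of 2 libraries against 1 cannot give a one-sided p below 0.333.

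The size of this difference depended on what the NK cells were counted against. Of barcodes other than melanoma, NK cells made up 13.8% in each library labelled shMib2 and 5.45% in that labelled shCtrl, a ratio of 2.53. Of NK and T cells together they made up 32.8, 33.3 and 31.3% in the libraries labelled shMib2 1, shMib2 2 and shCtrl 1, a ratio of 1.06, and all of these intervals overlapped. T cells numbered 541, 854 and 77 in the same order.

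**Figure D1:**
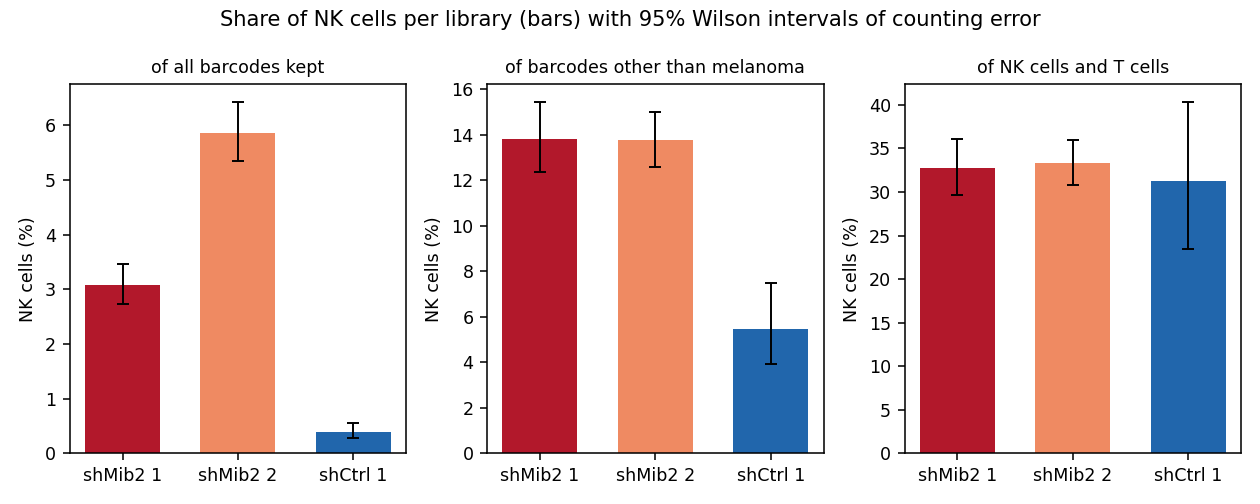
NK cells as a percentage of all barcodes kept (left), of barcodes other than melanoma (middle) and of NK and T cells together (right), 1 bar per library under its label, with 95% Wilson intervals. The bars of the libraries labelled shMib2 stand at 3.08% and 5.86% against 0.397% on the left, and the 3 bars on the right lie between 31.3% and 33.3%.

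The shares moved in both directions with the setting of the gate. The mean ratio over all barcodes was 13.2 with Ncr1 required and 14.4 with the gate on barcodes thinned to 1000 UMIs. It was 11.9 with stricter barcode limits. Over NK and T cells these settings gave 1.19, 1.17 and 0.99. NK cells with no UMI of Cd3g, Trbc1, Trbc2, Trdc or Lyz2 numbered 109, 85 and 16, and their mean ratio was 6.72 over all barcodes, 1.69 over barcodes other than melanoma (2.29 for the library labelled shMib2 1 and 1.10 for shMib2 2) and 0.75 over NK and T cells. Trbc2, a constant gene of the T cell receptor beta chain, had a UMI in 20.5, 27.4 and 31.4% of NK cells, against 84.5, 86.8 and 81.8% of T cells. Trbc1 had one in 45.5, 66.0 and 40.0% of NK cells and in 48.4, 49.5 and 41.6% of T cells. As summed levels, Trbc1 stood at 376, 461 and 281 CPM in NK cells and at 614, 542 and 692 CPM in T cells, whose gate uses it. Cd5 and Cd6, T cell surface genes that the rule does not use, had 0 UMIs in the NK cells of every library. In the test against T cells described below, 6 T cell markers outside both gates could be tested. Cd5, Cd6, Cd28, Bcl11b and Lat were lower in NK cells. Trdc, the constant gene of the T cell receptor delta chain, had a positive log2 fold change and was not called. The rule does not exclude cells with Trdc.

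Genes outside the rule were used to check the label. Gzma, a granzyme, had a UMI in 89.0, 91.1 and 82.9% of NK cells in the libraries labelled shMib2 1, shMib2 2 and shCtrl 1, against 6.65, 12.6 and 3.90% of T cells. In B cells, which should lack it and whose median depth was 806, 1402 and 846 UMIs, Gzma had one in 0, 0.917 and 0%. Tyrobp had a UMI in 90.2, 96.0 and 94.3% of NK cells and in 10.5, 16 and 9.09% of T cells. The groups did not overlap for either gene, and with cells thinned to 1000 UMIs Gzma was still detected in 83.9, 86.1 and 75.9% of NK cells. Markers of other innate lymphoid cells were rare. Any gene of ILC2 or ILC3, the innate lymphoid classes that make type 2 cytokines or interleukins 17 and 22, was found in 2, 4 and 1 NK cells.

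**Figure D2:**
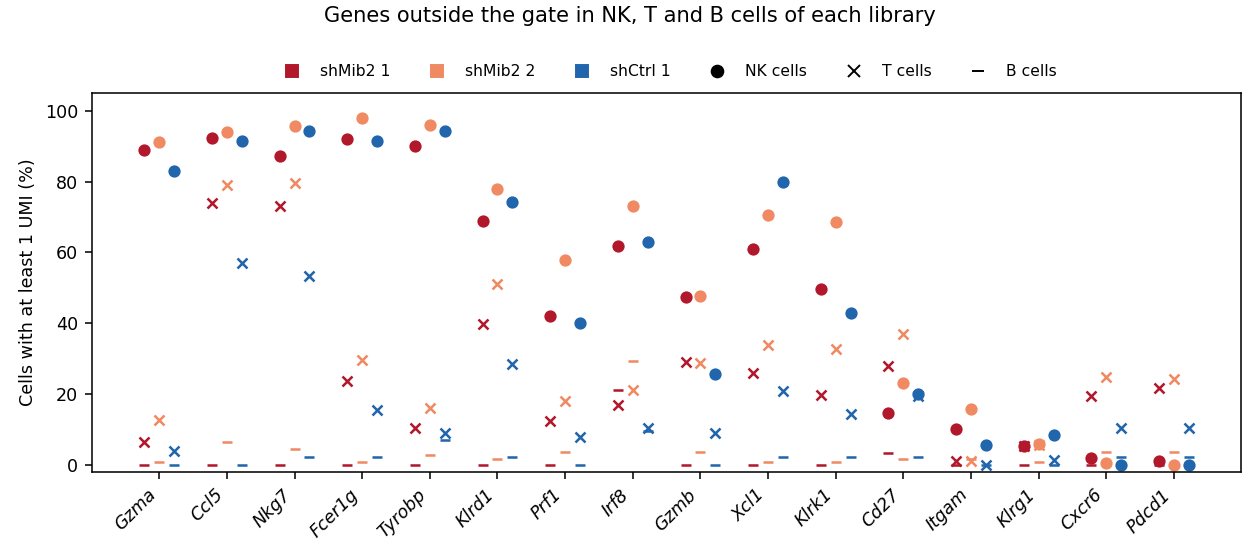
Percentage of cells with at least 1 UMI of genes that the NK rule does not use, in NK cells (dots), T cells (crosses) and B cells (dashes) of each library, colored by library label. Gzma, Tyrobp and Fcer1g were found in more than 80% of NK cells and in under 30% of T cells, while Cxcr6 and Pdcd1 were found in under 2% of NK cells.

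To describe how these NK cells differ from T cells, UMIs were summed per library. NK cells were compared with all T cells of the same library by edgeR's quasi-likelihood test, with library as a block. CD8 T cells were 205 of 541, 334 of 854 and 24 of 77 T cells in the libraries labelled shMib2 1, shMib2 2 and shCtrl 1. NK cells were not tested against CD8 T cells alone, whose CPM is given below for some genes. Of 7567 genes tested, 521 (6.89%) were higher in NK cells and 476 (6.29%) were lower at a Benjamini-Hochberg adjusted p under 0.05, and the median log2 fold change of all genes was 0.00. These counts include 18 genes that form the gates of NK or T cells, 9 called in each direction, which leaves 512 higher and 467 lower among the other 7549. The gate genes are left out of the list counts below, and their values stand as a description. Where 3 values follow each other in this comparison, they belong to the libraries labelled shMib2 1, shMib2 2 and shCtrl 1. Without the library labelled shMib2 2, 288 genes were called in place of 997, and 269 of them were among the 997. Without that labelled shMib2 1, 434 were called, 415 of them shared.

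The cytotoxic genes were led by Gzma. It had 5737, 6008 and 5084 CPM in NK cells, against 188, 339 and 211 CPM in T cells, with no overlap between the cell types. The log2 fold change was 4.48 ± 0.14 (SE, adjusted p = 2.7e-73). Prf1, which encodes the pore-forming protein perforin, had 400, 468 and 428 CPM in NK cells and 132, 164 and 39.5 CPM in T cells (log2 fold change 1.65 ± 0.15, adjusted p = 1.7e-19). The lowest NK value was well above the highest T value. It was also above the Prf1 values of CD8 T cells alone, 220, 251 and 76.1 CPM. Of 21 genes of cytotoxic granules and death ligands tested, 9 rose in NK cells over T cells, among them Gzmb, Gzmc, Fasl, Nkg7, Ctsw and the granzyme inhibitor Serpinb9, and Gzmk and Tnfsf10 fell. The list's median log2 fold change was 0.29.

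Granzymes B and C were less clear. Gzmb had 657, 713 and 281 CPM in NK cells and 535, 479 and 138 CPM in T cells (log2 fold change 0.46 ± 0.14, adjusted p = 0.01). The ranges overlapped across libraries, while NK cells were higher within each of the 3. CD8 T cells alone had 822, 781 and 76.1 CPM of Gzmb. NK cells were thus below CD8 T cells in both libraries labelled shMib2 and above them in that labelled shCtrl. The call was lost without either library labelled shMib2, with adjusted p = 0.081 without shMib2 1 and 0.44 without shMib2 2, and with DESeq2 (adjusted p = 0.24). Gzmc had 551, 357 and 736 CPM in NK cells and 37.7, 93.9 and 698 CPM in T cells (log2 fold change 2.00 ± 0.18, adjusted p = 1.1e-19). The T cell value of the library labelled shCtrl came from 106 UMIs in 1 of 77 cells, and the fold change turned to −1.30 (adjusted p = 0.47) among NK cells free of UMIs of Cd3g, Trbc1, Trbc2, Trdc and Lyz2.

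Chemokines rose together in NK cells. Xcl1, which attracts cross-presenting dendritic cells, had 1135, 1178 and 1351 CPM in NK cells and 288, 438 and 310 CPM in T cells (log2 fold change 1.71 ± 0.13, adjusted p = 6.2e-26). Ccl5 had 6836, 8387 and 5819 CPM in NK cells and 4486, 4510 and 2990 CPM in T cells, and Ccl4 had 1021, 1230 and 950 against 520, 373 and 79.0. CD8 T cells alone had 5235, 5105 and 2863 CPM of Ccl5 and 766, 505 and 152 CPM of Ccl4, below NK cells of each library. For Xcl1, Ccl4 and Ccl5 the NK and T ranges did not overlap. With Ccl3 and Tgfb1 they were the 5 of 11 tested cytokine and chemokine genes that rose, and Csf1 and Ltb, the lymphotoxin beta gene, fell. Ifng, which encodes interferon gamma, had 261, 320 and 214 CPM in NK cells and 223, 256 and 119 CPM in T cells, and it was not called (log2 fold change 0.29 ± 0.15, adjusted p = 0.21). It was called with the very deep barcodes left out (0.61, adjusted p = 9e-06). CD8 T cells alone had 301, 369 and 167 CPM of Ifng. These values were above NK cells in both libraries labelled shMib2 and below them in that labelled shCtrl.

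Receptors and adaptors of the NK cell surface were among the genes with the largest fold changes. Tyrobp had 1670, 2036 and 1953 CPM in NK cells and 145, 182 and 92.2 CPM in T cells (log2 fold change 3.56 ± 0.14, adjusted p = 2e-58), and Fcer1g had 1846, 2152 and 1967 against 230, 298 and 211. Klrb1b, an inhibitory receptor of the NKR-P1 family, had 126, 161 and 66.9 CPM in NK cells and 5.48, 7.69 and 13.2 CPM in T cells (4.30 ± 0.26). Both adaptors and Klrb1b were above T cells in each library with wide gaps. Klrb1a and Klrb1f of the same family and Sh2d1b1, which encodes the SLAM-receptor adaptor EAT-2, differed by 4.07, 3.97 and 4.29 on the log2 scale. Of 25 activating receptors and adaptors tested, 11 rose, among them also Klrk1 (Nkg2d), Klrc2, Cd244a, Slamf7, Cd84 and the kinase gene Syk. Another 7 fell, namely Cd226, Slamf6, Cd2, Tnfrsf9, Cd247, Zap70 and Lcp2, which T cells use as well.

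The Ly49 family was higher with 1 exception. Of 5 members tested outside the rule, Klra1, Klra3, Klra7 and Klra9 rose and Klra6 fell. Klra9 had 169, 205 and 174 CPM in NK cells and 12.3, 23.6 and 19.8 CPM in T cells (log2 fold change 3.27 ± 0.20, adjusted p = 3.2e-35), and Klra6 had 9.01, 7.20 and 40.1 against 25.4, 27 and 26.3 (−1.53 ± 0.40, adjusted p = 0.0022). The NK value of Klra6 was below its T value in both libraries labelled shMib2. In the library labelled shCtrl it lay above its T value but rested on 3 UMIs, so the order there is uncertain. Over the NK gene complex, taken here from the first to the last gene of the C-type lectin cluster at chr6:128609227-130386874, 18 genes outside the rule were tested. Of these 11 rose, 3 (2310001H17Rik, Cd69 and Klra6) fell and 4 (Clec2i, Clec2d, Gabarapl1 and Klrc1) were not called.

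Checkpoint receptors were split by class. Pdcd1, which encodes PD-1, had 7.20, 0 and 0 CPM in NK cells and 152, 147 and 119 CPM in T cells (log2 fold change −6.05 ± 0.37, adjusted p = 5.2e-35). Lag3 had 14.4, 7.20 and 13.4 against 134, 117 and 72.4 (−3.64), and Ctla4 had 27, 18.4 and 0 against 276, 231 and 125 (−3.59). All 3 receptors were lower in NK cells of every library. Of 15 inhibitory and checkpoint receptor genes tested, these and Havcr2, Cd200r1, Ptpn6 and Cblb fell. Klrd1, Klrb1b, Cd244a and Inpp5d, which serve or pass on inhibition in NK cells, rose, and the list's median was −0.51.

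Among transcription factors, Irf8 stood out, with 663, 776 and 763 CPM in NK cells and 204, 144 and 184 CPM in T cells (log2 fold change 2.04 ± 0.14, adjusted p = 3e-29). The T-box gene Tbx21 (T-bet) had 75.7, 101 and 107 against 30.2, 43.8 and 39.5 (1.23 ± 0.21), and Zeb2, a factor of terminal NK maturation, had 93.7, 106 and 107 against 51.4, 52.7 and 26.3 (0.98 ± 0.19). For all 3 genes the NK and T ranges were apart. Ikzf2 and Tox fell, with log2 fold changes of −2.59 and −1.88, and in all 11 of 27 factors rose and 8 fell.

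Genes of NK maturation changed in both directions against T cells, which says nothing of how mature the NK cells were. Itgam had 55.8, 68.0 and 26.8 CPM in NK cells and 7.54, 3.13 and 0 CPM in T cells (log2 fold change 3.78 ± 0.35, adjusted p = 3.1e-19). Cma1, which encodes a chymase, had 39.6, 38.4 and 80.3 against 0.685, 1.99 and 0 (4.59 ± 0.47, adjusted p = 2.1e-16). Neither gene overlapped between the cell types. Of 25 late-maturation genes tested 12 rose and 4 fell, and of 19 early-maturation genes 7 rose and 8 fell. The difference between the lists was not tested. Cd27 fell, with 77.5, 93.7 and 93.6 CPM in NK cells against 156, 154 and 132 CPM in T cells (−0.83 ± 0.17), and Ly6c2, on the late list, fell as well (−2.64).

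Genes of ILC1 and tissue residency were mostly lower. Cxcr6, a chemokine receptor of resident lymphocytes, had 12.6, 2.40 and 0 CPM in NK cells and 120, 143 and 125 CPM in T cells (log2 fold change −4.64 ± 0.31, adjusted p = 2.9e-30), and Il7r, the interleukin 7 receptor, had 9.01, 21.6 and 66.9 against 140, 145 and 402 (−3.02 ± 0.22). Both were lower in NK cells of each library. In CD8 T cells alone Il7r had 72.01, 72.45 and 258.9 CPM. Of 18 genes tested, 10 fell and Tmem176b, Rgs1 and Cd9 rose, with a median of −0.80. Itga1 and Tmem176b are ILC1 markers, and any of Itga1, Cxcr6 and Tmem176b had a UMI in 10.6, 12.4 and 11.4% of NK cells, against 23.8, 33.3 and 15.6% of T cells.

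Trafficking and cytokine receptors followed no single direction. Ccr2, which draws cells to inflamed tissue, had 229, 269 and 134 CPM in NK cells and 45.9, 60.9 and 13.2 CPM in T cells (log2 fold change 2.21 ± 0.17, adjusted p = 3.5e-26). Itga2 (CD49b), an integrin that marks mouse NK cells, had 88.3, 66.4 and 53.5 against 10.3, 8.54 and 0 (3.03 ± 0.30). Each NK value of Ccr2 and Itga2 was above each T value. Ccr7, the lymph node homing receptor, had 9.01, 3.20 and 0 against 59.6, 61.5 and 184 (−3.78 ± 0.37). In CD8 T cells alone Ccr7 had 70.7, 80.7 and 305 CPM. Of 22 homing genes 11 rose and 5 fell, and of 31 cytokine receptor and feedback genes 9 rose, including Il2rb, Il18rap and Il12rb2, and 6 fell, including Il2ra, Il7r and Il21r.

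Among the genes with the largest decreases outside the gate, some are known from T cells. Themis, a T cell receptor signaling gene, Dapl1 and Fam169b had 0 UMIs in NK cells of all libraries. Against a floor of 3 counts over all NK cells (1.596 CPM), they were at least 34.6-, 29.1- and 24.7-fold higher in T cells. Tnfrsf4 (OX40) had 1.80, 0 and 0 CPM in NK cells and 264, 200 and 415 CPM in T cells (log2 fold change −8.50 ± 0.41, adjusted p = 4.3e-47). Klk8, Nrn1 and Adam19 fell, with log2 fold changes of −3.74, −3.40 and −3.38. Igkc, the immunoglobulin kappa constant gene of B cells, fell by 6.26 on the log2 scale, with 1, 0 and 0 UMIs in NK cells and 83, 136 and 20 in T cells. B cells had 603, 1623 and 385 UMIs of it, and the B cell gene Cd79a, which the NK rule excludes, had 1, 20 and 4 UMIs in T cells. The part of B cell RNA in the Igkc value was not tested.

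Most cell cycle genes and some interferon response genes were lower in NK cells than in T cells. Ifi27l2a, an interferon-induced gene, had 86.5, 157 and 0 CPM in NK cells and 892, 956 and 408 CPM in T cells (log2 fold change −2.99 ± 0.16, adjusted p = 1e-39). It was lower in NK cells of each library. Of 34 type I interferon genes tested, 9 fell and none rose, and of 28 interferon gamma response genes 9 fell and none rose, Tap1, Psmb9 and Nlrc5 among them. With DESeq2 these counts were 4 and 5, and among NK cells free of T constant gene and Lyz2 UMIs they were 1 and 1. Of 41 cell cycle genes 33 fell and none rose, with a median log2 fold change of −0.88. Mki67, a gene of cycling cells, had 90.1, 35.2 and 40.1 CPM in NK cells and 160, 117 and 65.9 CPM in T cells (−1.30 ± 0.19). Cells with a UMI of Mki67 or Top2a made up 12.9 and 11.2% of NK cells labelled shMib2 against 23.8 and 20.5% of T cells. The library labelled shCtrl did not show this, with 17.1% of NK cells and 16.9% of T cells. Stmn1, also among the 33, had a UMI there in 17.1% of NK cells and 11.7% of T cells. With cells thinned to 1000 UMIs before summing, 9 of the 25 cell cycle genes that could still be tested fell, and among NK cells free of T constant gene and Lyz2 UMIs 7 fell.

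**Figure D3:**
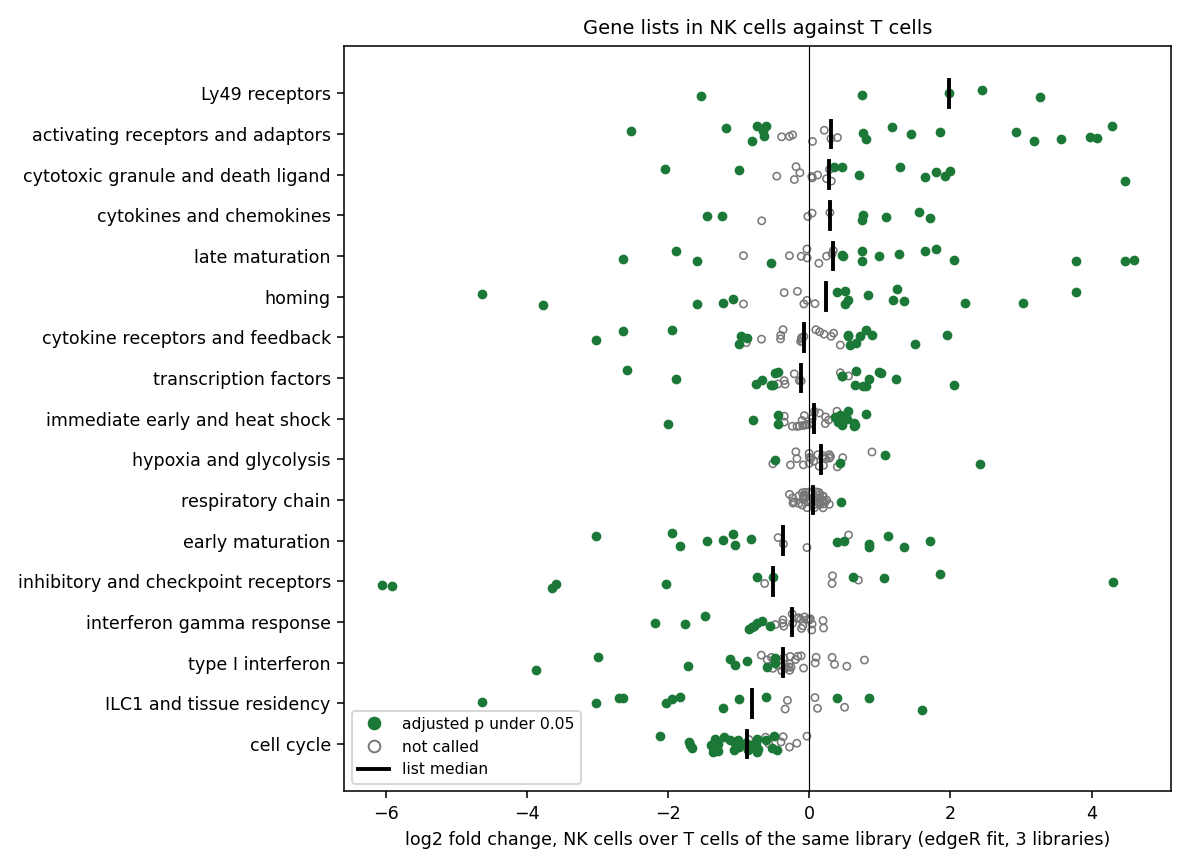
Log2 fold change of NK cells over T cells of the same library for each tested gene (dot) of 17 gene lists, with called genes filled and a bar at the list's median. The Ly49 receptors have the highest median, 1.99, and the cell cycle genes the lowest, −0.88.

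Transcripts of other cells were present in both cell types. The 5 hemoglobin and Alas2 genes summed to 7545, 3852 and 7371 CPM in NK cells and 5443, 2728 and 4360 CPM in T cells, and 3 of the 5 rose in NK cells. These UMIs were concentrated in few cells: Hba-a1 had a UMI in 44 of 264, 81 of 427 and 1 of 35 NK cells, and the cell with most of them held 33.7, 20.4 and 100% of its UMIs. The 7 melanoma genes summed to 1974, 983 and 1017 CPM in NK cells and 971, 703 and 1047 CPM in T cells, with Mlana, Tyrp1 and Ptgds called higher and none of them with thinned cells. The part of these transcripts in the comparison was not tested. Of 80 ribosomal protein genes 18 were lower in NK cells and 1 higher. Macrophage genes Csf1r and Adgre1, the dendritic gene Flt3, the endothelial genes Cdh5 and Kdr and the B cell genes Ms4a1 and Pax5 had 0 UMIs in NK cells of every library. Other markers of these cells were present. The 9 phagocyte genes summed to 180, 247 and 66.9 CPM in NK cells and to 90.5, 132 and 98.8 CPM in T cells. Apoe, with 99, 182 and 5 UMIs in NK cells, was called higher (log2 fold change 1.15, adjusted p = 1.2e-08), and Lyz2 had 0, 68 and 0 UMIs, 56 of them in 1 cell. The endothelial list summed to 39.6, 51.2 and 40.1 CPM in NK cells and 18.5, 29.6 and 26.3 CPM in T cells, with Pecam1 called higher (1.07, adjusted p = 0.0045). Ighm, the immunoglobulin mu gene, had 44, 105 and 3 UMIs in NK cells and was not called. The dendritic and B cell genes H2-Aa and Cd74 were lower in NK cells than in T cells.

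The next question was whether NK cells of the libraries labelled shMib2 differed from those of the library labelled shCtrl. Of 6946 genes tested with edgeR's quasi-likelihood test on 2 against 1 library sums, 11 (0.158%) were higher and none (0%) was lower at an adjusted p under 0.05. In either direction 557 had an unadjusted p under 0.05, while DESeq2 called 1 gene higher and none lower, and the median log2 fold change of all genes was 0.18. The fit has 1 residual degree of freedom, and it takes the single library labelled shCtrl to be as variable as those labelled shMib2.

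None of the 11 genes was on a list of NK functions. They were the collagen genes Col1a1, Col1a2 and Col3a1, the matrix and secreted protein genes Dcn, Mfap5, Fstl1, Sparc, Spp1 and Timp1, the collagen chaperone Serpinh1, and Ifitm3, an interferon-induced gene. Col1a2 had 571 and 598 CPM in NK cells of the libraries labelled shMib2 and 0 UMIs in those of the library labelled shCtrl, which puts it at least 14.6-fold higher over the floor of 3 counts in that library. Col3a1 had 609 and 822 CPM in NK cells labelled shMib2 against 13.4 CPM in those labelled shCtrl (log2 fold change 5.75 ± 0.65, adjusted p = 3.7e-05). T cells had the same genes in the same libraries, Col3a1 at 633 and 700 CPM in those labelled shMib2 and 0 in that labelled shCtrl, and Col1a2 at 429, 595 and 0 CPM in the same order.

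These UMIs lay in few barcodes. In the libraries labelled shMib2, Col1a2 had a UMI in 4 of 264 and 15 of 427 NK cells, and the 9 very deep barcodes of each library held 99.7 and 98.7% of its UMIs. For the 11 genes this share ranged from 78.7 to 100%. With the very deep barcodes left out no gene was called. Of the 11, 5 could still be tested, and 6 had too few UMIs left. For Col3a1, Sparc, Spp1 and Ifitm3 the log2 fold change was then 0.31 to 1.81. For Serpinh1 it was 6.64 (adjusted p = 0.72), and its 1 UMI in the library labelled shCtrl had been in the barcode left out. Among NK cells free of T constant gene and Lyz2 UMIs none of the 11 was called either. Summed fibroblast genes stood at 1776 and 2192 CPM in NK cells labelled shMib2 against 13.4 CPM in those labelled shCtrl, and in T cells at 1568 and 1947 against 6.59 CPM.

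**Figure D4:**
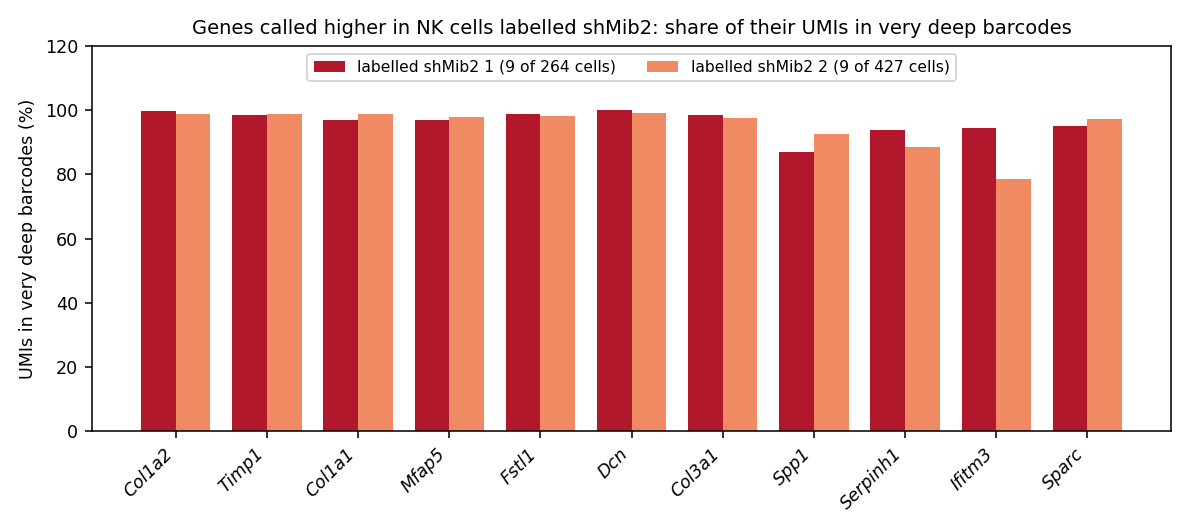
For each of the 11 genes called higher in NK cells of the libraries labelled shMib2, the percentage of its NK UMIs in the 9 very deep barcodes of each of these libraries (red shMib2 1, orange shMib2 2). All bars stand between 78.7 and 100%.

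Effector genes of NK cells did not pass the test between the labels. Gzmb had 657 and 713 CPM in NK cells of the libraries labelled shMib2 (95% Poisson intervals 592 to 728 and 667 to 762) and 281 CPM (174 to 429) in that labelled shCtrl, where 21 UMIs were counted. Its log2 fold change was 1.31 ± 0.33 (adjusted p = 0.17). The value labelled shCtrl lay below both others beyond counting error. The change passed the threshold with predicted doublets removed (adjusted p = 0.046) and with no filter on low counts (0.026). It did not pass in the other settings with a test. These included DESeq2, thinned cells (adjusted p = 0.28), the very deep barcodes left out (0.26) and stricter barcode limits (0.054). T cells had the same order, with 535 and 479 CPM labelled shMib2 against 138 CPM labelled shCtrl. Gzmb was detected in 47.3 and 47.8% of NK cells labelled shMib2 against 25.7% of those labelled shCtrl, and in 34.1 and 33.5% against 20.7% with cells thinned to 1000 UMIs.

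Ccl3 had 418 and 470 CPM in NK cells labelled shMib2 (366 to 475 and 433 to 510) against 187 CPM (102 to 314) in those labelled shCtrl (log2 fold change 1.27 ± 0.37, adjusted p = 0.34). It passed the threshold only when each library was reduced to the same number of NK cells, 35 (adjusted p = 0.011). Fosb, an immediate early gene, had 205 and 196 CPM against 26.8 CPM, or 2 UMIs (log2 fold change 2.92, adjusted p = 0.088). It passed the threshold with predicted doublets removed (adjusted p = 0.022), with equal numbers of NK cells (0.00043), with no filter on low counts (0.01) and with stricter barcode limits (0.016), and not in the other settings with a test, such as DESeq2 or the very deep barcodes left out (0.40). Both genes lay outside the counting interval of the library labelled shCtrl, and 0 of 36 immediate early and heat shock genes tested was called.

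None of the remaining effector genes was called. Gzma had 5737 and 6008 CPM in NK cells labelled shMib2 against 5084 CPM in those labelled shCtrl (log2 fold change 0.23), Prf1 had 400 and 468 against 428 (0.05), and Ifng had 261 and 320 against 214 (0.48). The Prf1 and Ifng values overlapped in their counting intervals. Ccl5 had 6836 and 8387 CPM against 5819 CPM (0.42, adjusted p = 0.61), and Xcl1 had 1135 and 1178 against 1351 (−0.20). Gzmc had 551 and 357 CPM against 736 CPM (−0.69, adjusted p = 0.59), and was called lower with cells thinned to 1000 UMIs (−1.82, adjusted p = 0.0059). With equal numbers of NK cells its value was 0.02. The 35 cells of the library labelled shCtrl limit the precision of all of these values.

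**Figure D5:**
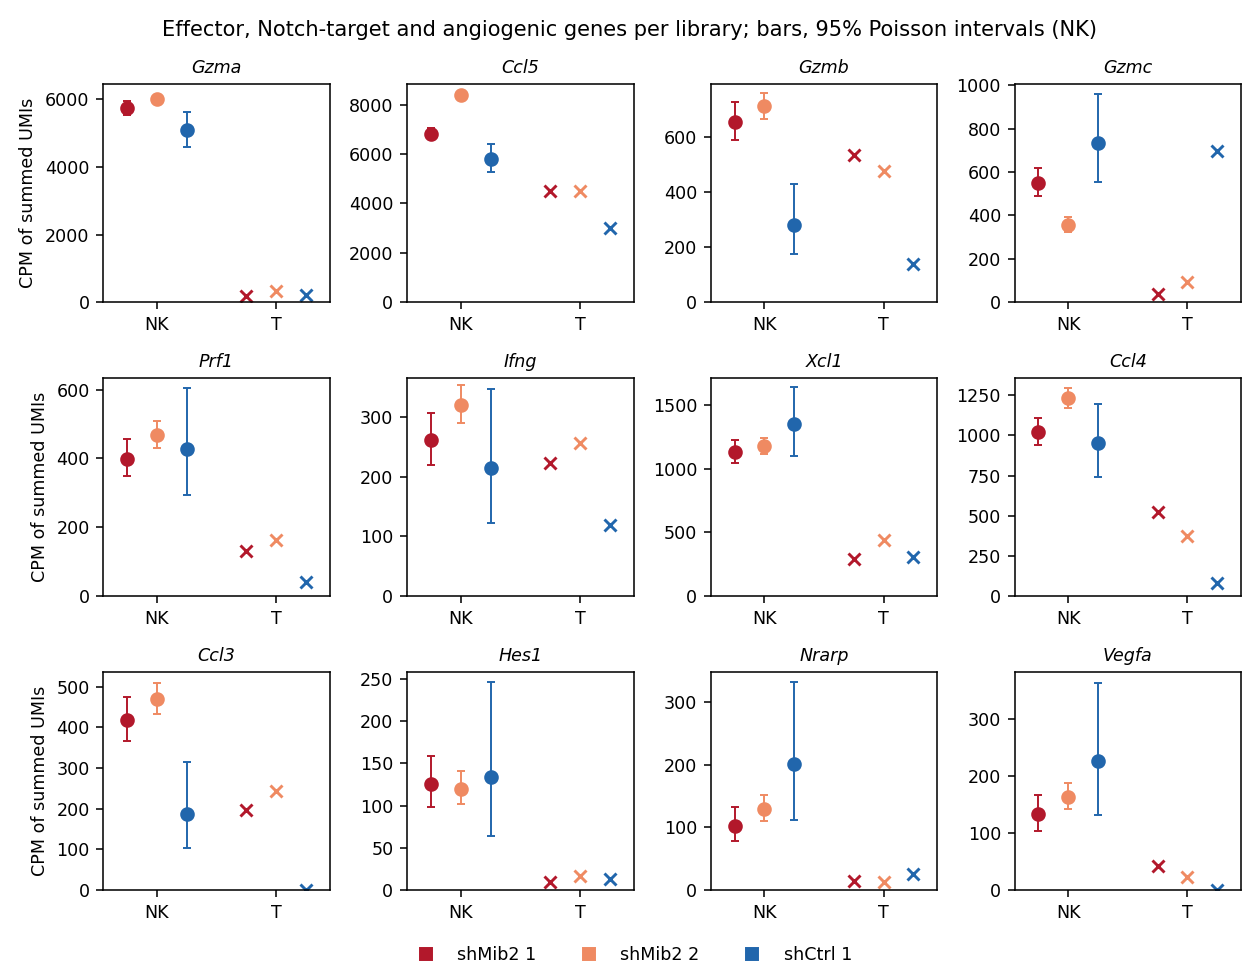
CPM of summed UMIs for 12 genes in NK cells (dots, with 95% Poisson intervals) and T cells (crosses) of each library, colored by label. Gzmb and Ccl3 lie lower in the library labelled shCtrl than in those labelled shMib2 in both cell types, whereas Hes1, Nrarp and Vegfa differ between NK and T cells in every library.

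Interferon genes were few in UMIs and none was called. Ifi27l2a had 86.5 and 157 CPM in NK cells labelled shMib2 and 0 UMIs in those labelled shCtrl, at least 3.03-fold higher over the floor (adjusted p = 0.16), and Isg15 had 110 and 90.5 CPM against 13.4 CPM, or 1 UMI. At least 2 type I interferon genes were detected in 12 of 264 and 25 of 427 NK cells labelled shMib2 and in 0 of 35 cells labelled shCtrl, which allows a share of cells with such UMIs of up to 8.57% (3 counts of 35, or 9.89% as the upper Wilson bound). The shares labelled shMib2, 4.55 and 5.85%, are below that limit. Of 28 type I interferon genes tested 26 had a positive log2 fold change, with a median of 1.21, against 0.18 over all genes. With the very deep barcodes left out the median was 0.59 over the 23 that could be tested, against 0.14 over all genes. A gene could pass the filter on low counts through the libraries labelled shMib2 alone. The signs and medians of such sparse genes can therefore be set in part by the filter, and they are a description only.

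Subsets of NK cells were compared by their marker UMIs. Cells with Cd27 and no Itgam made up 13.3 and 19.4% of NK cells labelled shMib2 and 20% of those labelled shCtrl, and cells with Itgam and no Cd27 made up 8.71 and 12.2% against 5.71%. With cells thinned to 1000 UMIs the Itgam share was 6.64 and 7.18% against 6.90%. Neither gene was detected in 76.5 and 64.6% against 74.3% of NK cells. Cells with Mki67 or Top2a, genes of dividing cells, made up 12.9 and 11.2% of NK cells labelled shMib2 and 17.1% (6 of 35) of those labelled shCtrl, and with thinning 9.95 and 3.83% against 13.8%. Klrg1, an inhibitory receptor of mature cells, was found in 5.30 and 6.09% against 8.57%. In T cells, Mki67 or Top2a had a UMI in 23.8 and 20.5% of those labelled shMib2 and in 16.9% of those labelled shCtrl. With thinning the T cell shares were 18.2 and 9.68% against 14.1%. In B cells, Mki67 or Top2a had a UMI in 5.26 and 5.50% of those labelled shMib2 and in 4.76% of those labelled shCtrl.

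Finally, the difference between the labels in NK cells was set against that in T cells by the interaction term of a fit over both cell types. Of 9442 genes tested, 40 (0.424%) had a more positive difference in NK cells and 8 (0.0847%) a more negative one, 0.508% together, with a median of 0.19 over all genes. Klf2, a factor of lymphocyte quiescence and egress, had 249 and 292 CPM in NK cells labelled shMib2 and 187 CPM in those labelled shCtrl, while T cells had 271 and 296 CPM against 692 CPM (interaction 2.06 ± 0.35, adjusted p = 0.00011). The T cells labelled shMib2 were thus below those labelled shCtrl. The NK value labelled shCtrl rested on 14 UMIs in 9 of 35 cells, so the order of the labels in NK cells is uncertain. Klf2 remained called with the very deep barcodes left out (adjusted p = 0.029). It was not called with cells thinned to 1000 UMIs (1.29, adjusted p = 0.31) or with at least 50 UMIs per gene (0.14). Gzmb (−0.33 ± 0.38, adjusted p = 0.90) and Prf1 (−1.64 ± 0.52, adjusted p = 0.27) were not called. Prf1 had 132 and 164 CPM in T cells labelled shMib2 against 39.5 CPM, or 6 UMIs, in those labelled shCtrl, while the NK values given above overlapped, and its unadjusted p was 0.004. Ribosomal protein genes made up 17 of the 40, with 81 tested and a median of 0.30. DESeq2 called none of the 48, and 66 genes had an unadjusted p under 0.05 with it, against 733 with edgeR.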

How the data were processed

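The authors deposited raw UMI counts of 32285 genes per barcode, made with Cell Ranger 4.0.0 on mm10 per the labels. The labels name a 5' V(D)J kit. Pools of tumors were sequenced as 1 library each. Predicted doublets (rate 0.8% per 1000 barcodes) stayed in and were removed as an alternative. Members and gene lists were chosen with earlier results of these data known. Barcodes were gated as described, with T cells needing UMIs of at least 2 of 6 T cell receptor genes and B cells at least 2 of 4 B cell genes. UMIs were summed per library and cell type and tested with edgeR 4.0.16 (quasi-likelihood, TMM, filterByExpr, Benjamini-Hochberg at 0.05) in R 4.3.3. DESeq2 1.42.0, other filters, gates, thinning and left-out libraries were alternatives. Scripts were tested on simulated data. Named genes were up to 12 per direction with the largest fold changes, called, at 20 CPM or more and on 1 side in every library, without gate genes, the listed markers of other cells, mitochondrial, ribosomal and predicted genes, plus 2 to 4 members of each list with the lowest p. Other genes were named after their values were seen. Lists covered NK functions, receptors, regulators, maturation, interferon, cell cycle, stress, hypoxia, respiratory chain, ribosome and 10 marker sets. Counts of all 16 gate genes stayed in the fits.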

Additional observations from a re-analysis of the deposited data

Results flagged for a closer look

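The interaction term of the edgeR fit called 48 of 9442 genes (0.508%) as differing between NK cells and T cells in the difference between the labels. The 9 genes given here are those of the 48 on a gene list, with a mean of at least 20 CPM. Gate genes and markers of other cells were left out. DESeq2 called none of the 9. Values are differences of log2 fold changes, NK cells minus T cells. The more positive ones were Klf2 at 2.06, Gzmc at 2.82, Hsp90ab1 (a heat shock protein gene) at 0.84, and the AP-1 genes Jund at 0.75 and Junb at 0.62. The more negative ones were Vim (vimentin) at −0.99, Stmn1 (stathmin) at −1.58, Ccl4 at −1.97 and Ccl3 at −9.59. The value for Ccl3 rests on 0 UMIs in T cells labelled shCtrl and depends on the prior count. T cells labelled shMib2 were at least 11.2-fold above the floor there. Ccl4 had 1021 and 1230 CPM in NK cells labelled shMib2 against 950 CPM in those labelled shCtrl, and 520 and 373 CPM against 79.0 CPM in T cells. Vim had 1441 and 1026 CPM against 1284 CPM in NK cells, and 1199 and 983 CPM against 487 CPM in T cells. Stmn1 had 326 and 130 CPM against 455 CPM in NK cells, and 503 and 373 CPM against 270 CPM in T cells. With the very deep barcodes left out, Klf2 was the 1 gene of the 9 still called. The library labelled shCtrl enters with 35 NK cells and 77 T cells. For Gzmc all 106 UMIs of its T cells lay in 1 cell (37.7 and 93.9 CPM in T cells labelled shMib2 against 698 CPM), and the interaction fell to 0.61 (adjusted p = 0.72) with cells thinned to 1000 UMIs. In NK cells labelled shCtrl, the cell with most UMIs of Vim held 54.2% of them and that of Gzmc 45.5%. For Ccl4 the highest T cell labelled shCtrl held 41.7% of 12 UMIs.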

How the results depend on the processing

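No paired analysis was possible because the groups labelled shMib2 and shCtrl share fewer than 2 replicate numbers. The share ratio, 11.3 over all barcodes, was 7.76 to 14.8 with 1 library labelled shMib2 left out, 2.53 over barcodes other than melanoma and 1.06 over NK and T cells. Over all barcodes it was 13.2 with Ncr1 required, 14.4 with the gate on thinned barcodes and 11.9 with stricter barcode limits. It was 6.72 without T constant gene and Lyz2 UMIs. Between the labels (11 higher, 0 lower), genes higher numbered 1 with DESeq2, 5 with its size factors, 1 with Ncr1 required, 5 with at least 50 UMIs, 1 with thinned cells, 18 with doublets removed, 29 with equal cell numbers, 26 with no filter on low counts, 23 with stricter barcode limits, and 0 without very deep barcodes or without T constant gene and Lyz2 UMIs. Genes lower numbered 2 with thinned cells, 3 with doublets removed, 6 with equal cell numbers, and 4 both with no filter and with stricter limits. Leaving out a library left no residual degree of freedom there, so those values carry no test. Against T cells (521 higher, 476 lower), DESeq2 called 148 and 142, Ncr1 required 268 and 242, thinned cells 277 and 264, and no T constant gene or Lyz2 UMI 70 and 83. Leaving out 1 library gave 147 to 456 higher and 141 to 428 lower.

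Cell cycle genes lower (33) numbered 8 with DESeq2, 11 with Ncr1 required, 9 with thinned cells and 7 without T constant gene or Lyz2 UMIs, and 3 to 27 with 1 library left out. Type I interferon genes lower (9) numbered 4, 5 and 1 with DESeq2, Ncr1 required and no T constant gene or Lyz2 UMI, and 3 to 7 with 1 library left out, and interferon gamma response genes (9) numbered 5 and 1 with the first and the last of these settings, and 3 to 7. Activating receptors higher (11) numbered 5 without T constant gene or Lyz2 UMIs and 6 to 11 with 1 library left out, and ILC1 genes lower (10) 6 with thinned cells and 5 without those UMIs, and 7 to 10. Ly49 genes higher (4) numbered 3 to 4 with 1 library left out. The interaction (40 and 8) had 0 and 0 genes with DESeq2 and with at least 50 UMIs, 19 and 3 with DESeq2 size factors, 18 and 2 with doublets removed, 26 and 10 with no filter, 53 and 4 with thinned cells and 30 and 5 without very deep barcodes.

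Subset shares, as labelled shMib2 minus labelled shCtrl in percentage points, were −3.65 for Cd27 without Itgam (2.19 with Ncr1 required), 4.73 for Itgam without Cd27 (0.0095 thinned) and 0.081 for the ILC1 genes (−1.83 with Ncr1 required, 1.91 thinned). They were −5.08 for Mki67 or Top2a (−16.0 with Ncr1 required, −6.90 thinned, −6.89 without very deep barcodes) and 5.20 for type I interferon genes (6.49, 2.02 and 3.84 under these settings). Gzmc against T cells turned to −1.30 without T constant gene or Lyz2 UMIs. Of 41 genes named against T cells, 34 kept their direction and side of the threshold in every setting that could test them (5 to 13 settings a gene), as did 3 of 15 between the labels and 0 of 9 in the interaction. The causes of these changes were not tested. The 35 NK cells labelled shCtrl limit every comparison between labels.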

Other observations

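The genes in this paragraph were picked after their values were seen. Hes1 and Nrarp, textbook targets of Notch signaling, were higher in NK cells than in T cells of every library. Hes1 had 126, 120 and 134 CPM in NK cells of the libraries labelled shMib2 1, shMib2 2 and shCtrl 1, against 9.60, 17.1 and 13.2 CPM in T cells (log2 fold change 3.07 ± 0.24). Nrarp had 103, 130 and 201 CPM in NK cells and 13.7, 12.8 and 26.3 CPM in T cells (3.13 ± 0.23). Between the labels neither was called in NK cells, with log2 fold changes of −0.10 and −0.74.

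Vegfa, which encodes the vascular growth factor VEGF-A, had 133, 163 and 227 CPM in NK cells and 43.2, 22.8 and 0 CPM in T cells (2.43 ± 0.20, adjusted p = 8.1e-23). Bnip3 and Pgk1, which like Vegfa are induced in hypoxia, were also called, and they were the 3 of 26 hypoxia and glycolysis genes that rose, while Hif1a fell (median log2 fold change 0.16). With the very deep barcodes left out Vegfa alone rose and 6 fell, namely Hif1a, Gapdh, Pkm, Ldha, Slc16a3 and Mif (median −0.23 over 25 genes), and with cells thinned to 1000 UMIs Vegfa rose and Hif1a, Gapdh and Mif fell, of 18. Car2, a carbonic anhydrase gene, had 240, 291 and 415 CPM in NK cells against 13.7, 33.6 and 46.1 CPM in T cells (3.35 ± 0.18). Thbs1 and Inhba were called higher in NK cells by edgeR, at log2 fold changes of 1.83 and 2.68, and not by DESeq2 (adjusted p = 0.14 and 0.43). Thbs1 and Inhba had 0 UMIs in NK and T cells labelled shCtrl.

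Immediate early genes were partly higher in NK cells. Of 37 immediate early and heat shock genes tested against T cells, 13 rose, including Dusp2 with 1268, 1505 and 1324 CPM in NK cells against 717, 789 and 771 CPM in T cells, and 4 fell. Of 42 respiratory chain genes 1, Ndufv3, rose.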
